A study of Homo sapiens with 6 samples.

Results

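The genes described here encode the AMPA and kainate receptors, 2 classes of ion channel opened by the transmitter glutamate. They were chosen by name: 4 AMPA receptor genes (*GRIA1* to *GRIA4*) and 5 kainate receptor genes (*GRIK1* to *GRIK5*), so 9 of the 60651 genes counted in each library. Each name matched 1 gene, and the choice was made with earlier results of these data known. The values came from total RNA sequencing of 6 neuroblastoma cell libraries, 3 with EtOH in their titles, taken here as the ethanol vehicle, and 3 with Tet, for tetracycline given for 5 days per the labels. All 6 titles carried the name IMR575, a line known for amplified *MYCN*, while the growth text told of single clones of SK-N-SH with a *MYCN* gene that tetracycline switches on, and a further tag of a knockdown. The study's methods describe IMR-5/75 cells in which tetracycline induces an shRNA against *MYCN*, and an expression model made from SK-N-AS. Which of these systems the libraries carry could not be settled from the labels, so groups are named by their titles. The growth text gives both groups the same selection antibiotics, G418 and blasticidin, and no further agent separated them.

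AMPA receptors are assemblies of subunits that carry most of the fast excitatory current between neurons in the brain. The subunit GluA2, made from *GRIA2*, decides whether such a channel passes calcium, because its messenger RNA is edited at 1 codon in the pore, known as the Q/R site, by the adenosine deaminase ADAR2 (*ADARB1*). Kainate receptors are built from GluK1 to GluK3 (*GRIK1* to *GRIK3*), which form channels alone or together, and from GluK4 and GluK5 (*GRIK4*, *GRIK5*), which need one of the former to reach the surface. They act both before and after the synapse. Neuroblastoma derives from the sympathetic lineage, in which fast transmission runs mainly on acetylcholine.

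The coding sequence around the Q/R site is shown for the 4 receptor genes with the highest levels per length, as a view of how alike these genes are at the position that sets their permeability. Capitals mark the Q/R codon, and the 27 bases were read 5′ to 3′ from the GENCODE v44 reference transcripts (GRCh38). The codon lies at chr4:157336722-157336724 in exon 11 of 16 of *GRIA2* (plus strand, residue 607), at chr6:101924713-101924715 in exon 13 of 17 of *GRIK2* (plus strand, residue 621), at chr11:105924744-105924746 in exon 12 of 17 of *GRIA4* (plus strand, residue 608) and at chr21:29581429-29581431 in exon 13 of 18 of *GRIK1* (minus strand, residue 636). For *GRIK1* and *GRIK2* the window crosses an exon junction.
*GRIA2*: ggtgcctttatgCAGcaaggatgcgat
*GRIA4*: ggtgcttttatgCAGcaaggatgtgac
*GRIK2*: ggagctctcatgCAGcaaggttctgag
*GRIK1*: ggagctctcatgCAGcaaggatcagag

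All 9 genes encode glutamine (CAG) at this site in the reference. The window of *GRIA4* differed from that of *GRIA2* at 3 of 27 bases, and the window of *GRIK1* from that of *GRIK2* at 2. *GRIA2* and *GRIK2* differed at 8. Of the 9 genes, *GRIA2*, *GRIK1* and *GRIK2* are the ones known to be edited here. The values below are whole-gene counts from reads with a single alignment, and show neither the edited share nor the alternative flip and flop exons.

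The libraries held between 27933378 and 40498065 counts, so that 3 counts, taken as the floor, correspond to between 0.0755 and 0.108 CPM (counts per 1e6, scaled between libraries by TMM). Floors cover counting error only. The intervals given below for log2 fold changes come from the edgeR fit, and include the estimated spread between libraries. No pair of libraries from 1 group was close enough to be the same library deposited again, since their chi-square was at least 10.2 times its degrees of freedom. EtOH replicate 2 had the highest score on the first principal component (84.2), followed by Tet replicate 2 (47.3). The other libraries lay between -55.0 and -1.81. EtOH replicate 2 also had the lowest share of mitochondrial counts, at 4.12%, again followed by Tet replicate 2, at 5.86%, where the others had 6.82% to 10.01%. Results for single genes are also given without EtOH replicate 2 where that matters. No fit left out both replicate 2 libraries, so a trait they share was not tested. Markers of the sympathetic lineage were well expressed, with 6 of 8 at a mean of at least 1 TPM (a level scaled by exon length) and a summed level of 559 to 607 TPM in EtOH and 623 to 744 TPM in Tet libraries. The catecholamine enzymes *TH*, with 1 count in all, and *DBH*, with 35.5, were near absent. The summed levels of astrocyte markers (2.00 to 2.27 TPM in EtOH, 1.21 to 2.43 TPM in Tet), of Schwann cell markers (1.99 to 2.38 and 1.07 to 3.496 TPM) and of macrophage markers (0.285 to 0.796 and 0.251 to 0.462 TPM) were low, and *S100B* and *AIF1* had 0 counts. Mesenchymal markers summed to 94.4 to 179 TPM in EtOH and 101 to 187 TPM in Tet libraries. *TWIST1* made up most of this sum, with overlapping groups (log2 fold change 0.59, edgeR adjusted p = 0.474). *PRRX1* (-1.02, edgeR adjusted p = 0.317) and *CD44* (-0.39, edgeR adjusted p = 0.618) were lower in Tet libraries without overlap. Of the 6 mesenchymal markers, 0 passed.

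The gene that tetracycline was meant to act on was checked first. *MYCN* was at 158, 256 and 156 CPM in EtOH replicates 1, 2 and 3 and at 197, 200.1 and 145 CPM in Tet replicates 1, 2 and 3. The groups overlapped, and the log2 fold change in edgeR was -0.07 (SE 0.23, adjusted p = 0.956). The receptor genes are thus compared between labels, with no difference in *MYCN* RNA detected in either direction. For both its tetracycline models the study reports that the change in MYCN was checked by western blot. The values here are RNA only, and the labels do not tie those blots to these libraries.

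*GRIA2* was the most abundant of the 9 genes per length and the one with the largest difference between the labels. It was at 111.6, 57.3 and 114 CPM in EtOH replicates 1, 2 and 3 and at 240.1, 238 and 219.95 CPM in Tet replicates 1, 2 and 3. Every Tet library was above every EtOH library, and the 3 Tet libraries lay close together, while EtOH replicate 2 lay well below the other two EtOH libraries. The means were 94.3 ± 32.1 and 232.7 ± 11.1 CPM (SD, n = 3 each), a fold of 2.47. On the log2 scale the difference of 1.302 (SE 0.25, 95% interval 0.72 to 1.88) had an unadjusted p of 7.3e-04 but did not pass the threshold over all genes (edgeR adjusted p = 0.0949). Without EtOH replicate 2 it was 1.05 and passed (edgeR adjusted p = 0.00844). Over all genes that fit called 361 higher and 331 lower, against 33 and 20 with all 6 libraries. *GRIA2* (ENSG00000120251.21) spans chr4:157204182-157366075 on the plus strand, with 21 exon blocks of 8941 bases in all, none of them shared with another gene. It held between 1588 and 8740 counts per library, so its spread was not set by counting error.

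**Figure D1:**
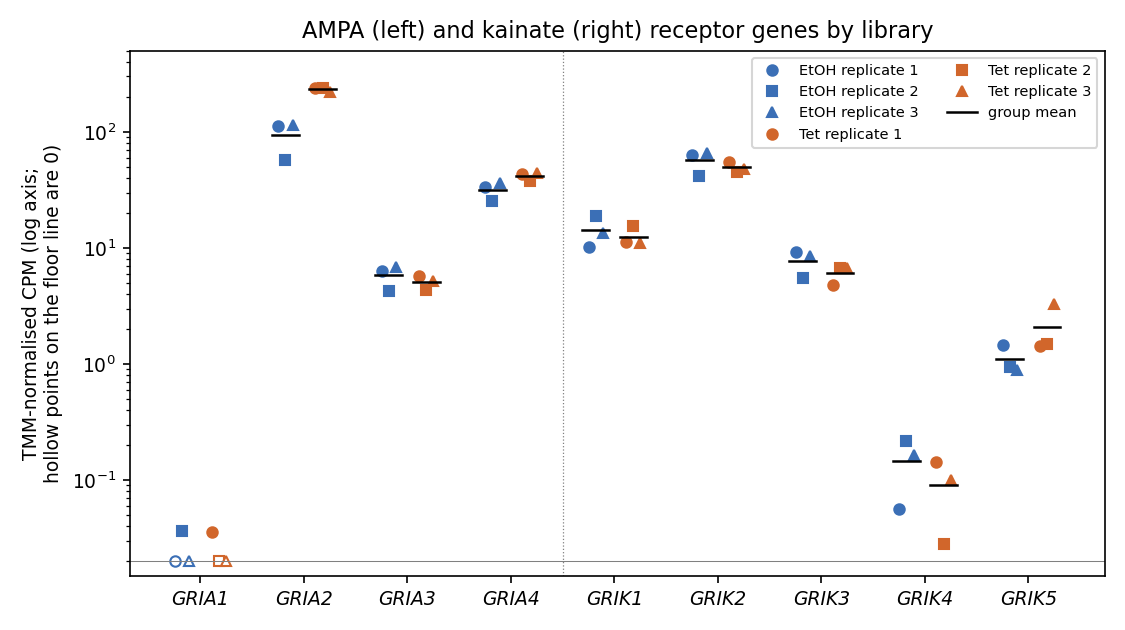
Level of each receptor gene in each of the 6 libraries, as TMM-normalised CPM on a log axis, with EtOH libraries in blue, Tet libraries in orange and the group mean as a black line. The Tet libraries of *GRIA2* (219.95 to 240.1 CPM) lie above its EtOH libraries (57.3 to 114 CPM), as those of *GRIA4* do by less, and *GRIA1* and *GRIK4* lie near the floor.

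Of the other AMPA receptor genes, *GRIA4*, which makes GluA4, was the second most abundant. It was at 33.7, 25.3 and 36.2 CPM in EtOH replicates 1, 2 and 3 and at 43.0, 38.0 and 43.8 CPM in Tet replicates 1, 2 and 3. The Tet libraries were all above the EtOH libraries, by a smaller margin than for *GRIA2*. The log2 fold change in edgeR was 0.39 (SE 0.18, 95% interval -0.019 to 0.80, adjusted p = 0.492), and 0.26 without EtOH replicate 2. *GRIA3* (GluA3) was at 6.33, 4.29 and 6.91 CPM in EtOH and at 5.78, 4.32 and 5.18 CPM in Tet replicates 1, 2 and 3. Its groups overlapped almost completely, with a log2 fold change of -0.20 (95% interval -0.80 to 0.40, edgeR adjusted p = 0.862). With 1 library left out it ran from -0.088 (without EtOH replicate 3) to -0.37 (without EtOH replicate 2). *GRIA1* (GluA1), the partner of GluA2 in many forebrain neurons, had 1 count in EtOH replicate 2, 1 in Tet replicate 1 and 0 in the other libraries. It was below the floor in every library, so no fold is given.

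Among the kainate receptor genes, *GRIK2* (GluK2) was the most abundant. It was at 63.3, 41.5 and 66.2 CPM in EtOH replicates 1, 2 and 3 and at 55.1, 45.5 and 47.97 CPM in Tet replicates 1, 2 and 3. The groups overlapped, and the lowest value was again that of EtOH replicate 2. The log2 fold change in edgeR was -0.20 (SE 0.20, 95% interval -0.67 to 0.26, adjusted p = 0.806), and -0.38 without EtOH replicate 2. *GRIK1* (GluK1) was at 10.2, 18.8 and 13.4 CPM in EtOH and at 11.2, 15.4 and 10.97 CPM in Tet replicates 1, 2 and 3. Here replicate 2 of each label was the high one, unlike for *GRIA2* and *GRIK2*. The log2 fold change was -0.17 (95% interval -0.78 to 0.43, edgeR adjusted p = 0.885), and it changed sign without EtOH replicate 2 (0.092). *GRIK1* shares 45 of its 4242 exon bases (1.06%) with *BACH1* on the other strand, and the counting used no strand. None of the other 8 receptor genes shared an exon base with another gene.

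*GRIK3* (GluK3) was at 9.18, 5.48 and 8.50 CPM in EtOH and at 4.79, 6.74 and 6.69 CPM in Tet replicates 1, 2 and 3. The groups overlapped through EtOH replicate 2, and the log2 fold change was -0.35 (95% interval -0.96 to 0.27, edgeR adjusted p = 0.726). Without EtOH replicate 2 it was -0.53. Of the subunits that need a partner, *GRIK5* (GluK5) was low, at 1.45, 0.938 and 0.893 CPM in EtOH and at 1.42, 1.49 and 3.30 CPM in Tet replicates 1, 2 and 3. Tet replicate 3 was the high library, and the other Tet libraries were near EtOH replicate 1. Its log2 fold change in edgeR of 0.92 (SE 0.43, 95% interval -0.073 to 1.91, adjusted p = 0.509) was 0.41 without Tet replicate 3. *GRIK4* (GluK4) had 22 counts over all 6 libraries, between 1 and 6 in each, and was too low to be tested.

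Read as a group, 7 of the 9 genes passed the filter on low counts, and 0 of these 7 passed the edgeR test over all genes, in which 0.236% of 22443 genes did. At an unadjusted p under 0.05 there was 1, *GRIA2*, where the share over all genes tested was 10.8%. Without EtOH replicate 2, *GRIK2* and *GRIK3* were also under 0.05 before adjustment, both lower in Tet libraries. They did not pass after adjustment (edgeR adjusted p = 0.167 and 0.230). In that fit 2362 of all genes were lower and 2556 higher at an unadjusted p under 0.05, against 1108 and 1309 with all 6 libraries. The filter was rerun for that fit, so its number of genes tested can differ from 22443 and no share is given. The Tet and EtOH libraries did not overlap for 2 of 7 genes, *GRIA2* and *GRIA4*, against 17.5% of all genes tested. The same tests gave 0 of these genes in limma-voom and 1, *GRIA2*, in DESeq2 (adjusted p = 7.4e-04). DESeq2 called many more genes than edgeR, 290 higher and 209 lower over all genes, or 342 and 255 on the 22443 genes that edgeR tested. For limma-voom these counts were 37 and 21. The median log2 fold change was -0.17 over the 7 genes, 0.39 over the 3 AMPA genes and -0.19 over the 4 kainate genes, against -0.0061 over all genes tested. The 95% intervals of the 6 genes other than *GRIA2* all held 0, and reached from -0.96 (*GRIK3*) to 1.91 (*GRIK5*). In RNA from whole cultures, fewer cells with a transcript and less of it per cell cannot be told apart. The study describes its cell culture experiments in general as biologically independent, which the labels do not state for these libraries.

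**Figure D2:**
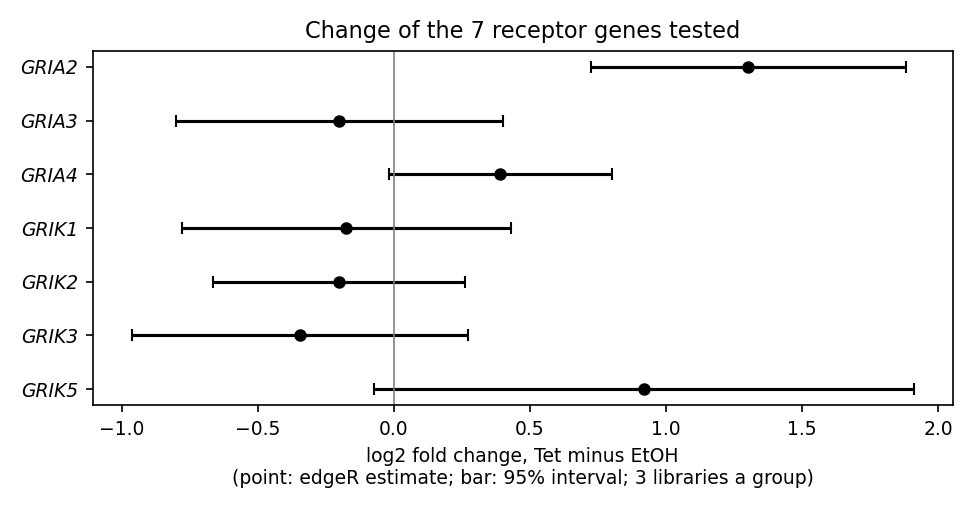
Log2 fold change of the 7 receptor genes tested, Tet minus EtOH, with the edgeR estimate as a point and its 95% interval as a bar (3 libraries a group). The interval of *GRIA2* (0.72 to 1.88) lies above 0, and those of the other 6 genes cross it.

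Compared per length, the order of the genes was *GRIA2*, *GRIK2*, *GRIA4*, *GRIK1*, *GRIA3*, *GRIK3*, *GRIK5*, *GRIK4* and *GRIA1*. Over the 6 libraries the mean levels were 49.3 ± 23.4 TPM for *GRIA2*, 18.3 ± 3.44 TPM for *GRIK2*, 9.85 ± 1.56 TPM for *GRIA4* and 8.64 ± 2.57 TPM for *GRIK1* (SD, n = 6). They were 2.31 ± 0.448 TPM for *GRIA3*, 1.78 ± 0.416 TPM for *GRIK3* and 0.838 ± 0.399 TPM for *GRIK5*. *GRIA2* was above *GRIK2* in 6 of 6 libraries, although their ranges met in EtOH replicate 2, where *GRIA2* was at 18.9 and *GRIK2* at 15.5 TPM. *GRIA4* and *GRIK1* were neighbours that did not differ beyond their spread, with *GRIA4* above in 5 of 6 libraries. *GRIA3* and *GRIK3* had overlapping ranges too, as had *GRIK3* and *GRIK5*. TPM was reckoned with the length of all annotated exons of a gene, so a gene whose long exons are unused has a level that is too low here.

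The make-up of the 2 receptor classes differed. Summed over the 4 AMPA genes, the level was 45.3, 28.3 and 47.4 TPM in EtOH replicates 1, 2 and 3 and 90.3, 84.6 and 72.5 TPM in Tet replicates 1, 2 and 3. *GRIA2* took 74.3%, 66.8% and 73.3% of this sum in the EtOH and 83.9%, 85.7% and 82.7% in the Tet libraries. All Tet libraries had the larger *GRIA2* share, as well as the larger sum. The share of *GRIA4* was 22.2% ± 3.44 in EtOH and 13.4% ± 1.23 in Tet libraries, and that of *GRIA3* 6.31% ± 0.568 and 2.55% ± 0.349 (SD, n = 3 each). Per length, the level of *GRIA2* was 3.28 ± 0.636 times that of *GRIA4* in EtOH and 6.34 ± 0.701 times in Tet libraries.

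The summed kainate level was 31.2, 30.8 and 34.1 TPM in EtOH and 29.2, 28.1 and 24.2 TPM in Tet replicates 1, 2 and 3, lower in every Tet library by a narrow margin. *GRIK2* and *GRIK1* together made up most of it. *GRIK2* took 62.0% ± 10.2 in EtOH and 61.2% ± 5.77 in Tet libraries, and *GRIK1* 29.6% ± 11.5 and 28.9% ± 5.46 (SD, n = 3 each). These shares moved more between replicates than between labels: in EtOH replicate 2, *GRIK1* stood at 42.6% and *GRIK2* at 50.3%. The ratio of the AMPA sum to the kainate sum was 1.45, 0.921 and 1.39 in EtOH replicates 1, 2 and 3 and 3.10, 3.01 and 2.99 in Tet replicates 1, 2 and 3. These sums and shares are descriptions and were not tested. The genes were picked with results of these libraries known, a limit that also holds for the p-values of single genes given here.

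**Figure D3:**
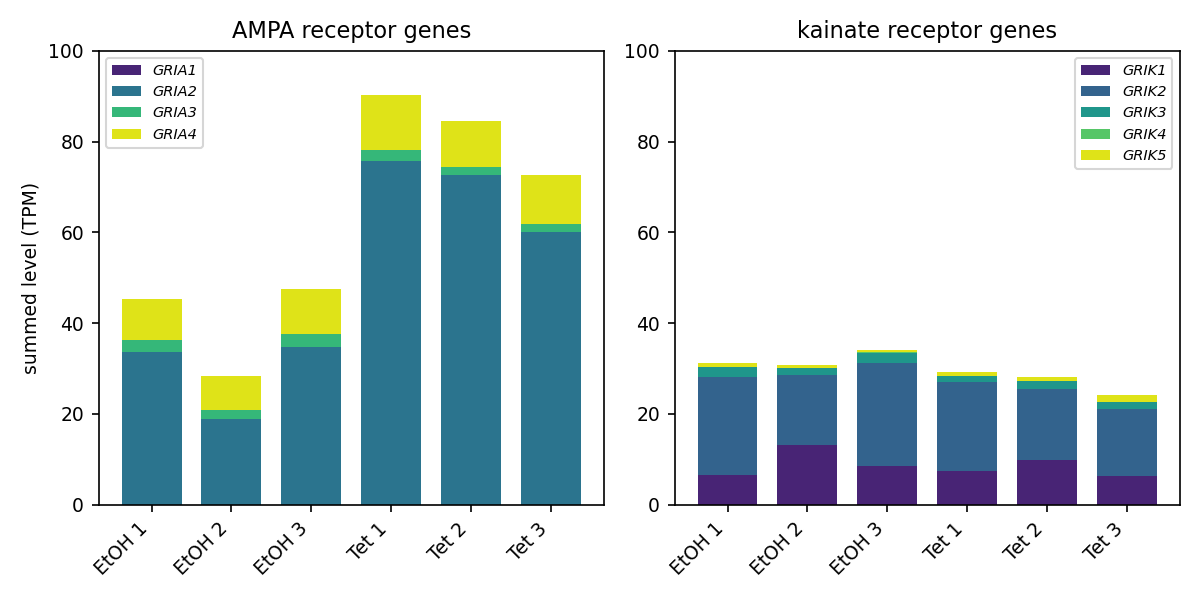
Level of each AMPA receptor gene (left) and kainate receptor gene (right) in each library, in TPM, stacked to the class sum. The AMPA stacks reach 28.3 to 47.4 TPM in EtOH and 72.5 to 90.3 TPM in Tet libraries, and *GRIA2* accounts for most of each, while the kainate stacks stay between 24.2 and 34.1 TPM.

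The pattern of *GRIA2* over the libraries was set beside that of all other genes with a mean of at least 5 CPM, by Pearson's correlation of log2 CPM over the 6 libraries. The 3 genes most like it were *AKNAD1* (r = 0.998), *SLC7A14* (r = 0.996) and *DYNC1I2* (r = 0.994), out of 10088 genes compared. *AKNAD1* was at 78.5, 51.0 and 84.9 CPM in EtOH and at 134.7, 128.5 and 124.9 CPM in Tet replicates 1, 2 and 3. *SLC7A14*, a relative of the cationic amino acid transporters, was at 57.7, 32.8 and 59.1 CPM and at 96.3, 93.0 and 91.7 CPM. *DYNC1I2*, an intermediate chain of the motor dynein, was at 186, 154 and 187 CPM and at 218, 217 and 211 CPM. All 3 were, like *GRIA2*, lowest in EtOH replicate 2 and close together in the Tet libraries. *AKNAD1* shares 3.87% of its exon bases with other genes, and *SLC7A14* shares 2.33% of its exon bases with genes on the other strand, *SLC7A14-AS1* among them. None of the 3 passed the test (edgeR adjusted p = 0.155, 0.181 and 0.519). Among the receptor genes themselves, the same correlation with *GRIA2* was 0.94 for *GRIA4*, 0.055 for *GRIK2*, 0.032 for *GRIA3*, -0.17 for *GRIK3* and -0.52 for *GRIK1*. These 6 points share their label and any trait of a library, and are given as a description.

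Around the receptors, 88 of 89 listed genes of glutamate signalling were found and 57 were tested. In edgeR 0 passed over all genes. At an unadjusted p under 0.05, 7 were higher and 11 lower in Tet libraries, and the groups did not overlap for 5 higher and 13 lower genes, where 10.8% and 17.5% of all genes tested met these criteria. limma-voom called 0, and DESeq2 called 2 higher (*C1QL3*, *SHANK2*) and 4 lower (*NETO1*, *SLC1A3*, *GRIP2*, *GSG1L*). Over all genes, limma-voom called 37 higher and 21 lower, and DESeq2 290 higher and 209 lower. On the 22443 genes that edgeR tested, DESeq2 called 342 higher and 255 lower, with 2 and 4 companion genes among them. The median log2 fold change of the 57 genes was -0.06.

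AMPA receptors in neurons travel with auxiliary subunits that set their gating and delivery. Of 20 such genes and assembly factors, 10 were tested, and 1 was higher and 2 lower at an unadjusted p under 0.05, with a median log2 fold change of 0.26. Of the auxiliary subunits known as TARPs, *CACNG2*, *CACNG3* and *CACNG7* had 0 counts and *CACNG8* had 2 in all. *CACNG4*, with 257.5 counts in all, was the 1 gene of this list higher at an unadjusted p under 0.05. It was at 1.28, 0.289 and 0.562 CPM in EtOH and at 1.91, 1.18 and 2.26 CPM in Tet replicates 1, 2 and 3. Its groups overlapped (log2 fold change 1.31, SE 0.54, edgeR adjusted p = 0.437). *CACNG5* (TARP γ5) was at 1.93, 1.15 and 2.05 CPM in EtOH and at 0.354, 0.423 and 0.931 CPM in Tet replicates 1, 2 and 3. The groups did not overlap, and the log2 fold change in edgeR was -1.56 (SE 0.47, adjusted p = 0.265). *GSG1L*, an auxiliary subunit that slows recovery from desensitisation, was at 1.62, 1.66 and 1.69 CPM in EtOH and at 0.106, 0.113 and 0.654 CPM in Tet replicates 1, 2 and 3. It had the largest difference of the 57 genes, with a log2 fold change in edgeR of -2.44 (SE 0.65, adjusted p = 0.206), and Tet replicate 3 stood between the others and the EtOH level. Without Tet replicate 3 it was -3.86 (edgeR adjusted p = 0.106). Tet replicates 1 and 2 held 3 and 4 counts of *GSG1L*, at or near the floor of 3 counts. The size of both estimates therefore rests on values at the floor. *CNIH2*, a cornichon that helps AMPA receptors leave the endoplasmic reticulum, was at 0.165 to 0.289 CPM in EtOH and 0.319 to 0.621 CPM in Tet libraries (log2 fold change 1.07, edgeR adjusted p = 0.509). *CNIH2* shares 11.3% of its exon bases with genes on the other strand.

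Kainate receptors have the auxiliary subunits Neto1 and Neto2. *NETO1* was at 59.9, 84.5 and 60.2 CPM in EtOH and at 36.3, 27.98 and 26.2 CPM in Tet replicates 1, 2 and 3. Every Tet library was below every EtOH library. The log2 fold change of -1.18 (SE 0.21, 95% interval -1.64 to -0.71) came close to the threshold without passing it (edgeR adjusted p = 0.0726), and passed without EtOH replicate 2 (-0.99, edgeR adjusted p = 0.0190). Over all genes that fit called 361 higher and 331 lower, against 33 and 20 with all 6 libraries. Of the exon bases of *NETO1*, 24.8% lie in a second annotated gene on the same strand, ENSG00000265579, between which and *NETO1* reads were split. *NETO2* was at 126.5, 194 and 123 CPM in EtOH and at 153, 209 and 131 CPM in Tet replicates 1, 2 and 3. Its groups overlapped (log2 fold change 0.15, edgeR adjusted p = 0.891). Per length, *NETO2* was 2.57 ± 0.154 times the level of *NETO1* in EtOH and 6.65 ± 2.04 times in Tet libraries (SD, n = 3 each).

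Of 21 binding and clustering proteins, 16 were tested, and 3 were higher and 1 lower at an unadjusted p under 0.05 (median log2 fold change 0.15). *C1QL3*, of a family of secreted proteins of which some members bind kainate receptors, was at 4.80, 4.87 and 4.69 CPM in EtOH and at 15.4, 10.4 and 11.0 CPM in Tet replicates 1, 2 and 3. The EtOH libraries were nearly equal and all Tet libraries were above them. The log2 fold change in edgeR was 1.36 (SE 0.23, adjusted p = 0.0656), and 7.49% of the exon bases are shared with genes on the other strand. *GRIP2*, a scaffold that binds the tail of GluA2 and GluA3, was at 3.91, 3.57 and 4.36 CPM in EtOH and at 1.70, 1.44 and 2.26 CPM in Tet replicates 1, 2 and 3 (log2 fold change -1.13, SE 0.29, edgeR adjusted p = 0.185). *LRRTM2*, a synaptic adhesion protein, was at 14.6 to 16.8 CPM in EtOH and 17.7 to 29.3 CPM in Tet libraries (0.62, edgeR adjusted p = 0.338).

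Of 13 scaffolds of the postsynaptic density, 8 were tested, with 2 higher and 1 lower at an unadjusted p under 0.05 (median log2 fold change 0.30). *SHANK2* was at 12.5, 13.4 and 13.5 CPM in EtOH and at 21.8, 29.98 and 21.4 CPM in Tet replicates 1, 2 and 3, with no overlap (0.89, SE 0.19, edgeR adjusted p = 0.128). *SHANK1* had 1 count in all. Of 9 NMDA and delta receptor genes, 4 were tested (median log2 fold change -0.22). *GRIN1*, the subunit that every NMDA receptor needs, had 0 counts in all 6 libraries, as had *GRIN2A* and *GRIN2B*, which allows at most 3 counts per library if the deposited zeros are measured values. Zeros are given here as deposited, and whether any stands for a gene left out of the counting was not tested.

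Of 8 metabotropic glutamate receptor genes, 6 were tested, with 0 higher and 1 lower at an unadjusted p under 0.05 (median log2 fold change -0.69). *GRM8* was at 5.69, 9.09 and 5.12 CPM in EtOH and at 3.403, 3.55 and 3.07 CPM in Tet replicates 1, 2 and 3, without overlap (-0.99, SE 0.28, edgeR adjusted p = 0.240). *GRM7*, which like *GRM8* codes for a receptor that lowers cyclic AMP, was at 1.12 to 1.80 CPM in EtOH and 0.755 to 1.10 CPM in Tet libraries (-0.68, edgeR adjusted p = 0.562).

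The editing enzymes were measured at the RNA level. *ADARB1* was at 20.6, 14.5 and 19.9 CPM in EtOH and at 29.7, 23.1 and 30.4 CPM in Tet replicates 1, 2 and 3. The Tet libraries were all above the EtOH libraries (log2 fold change 0.59, SE 0.20, edgeR adjusted p = 0.328). *ADAR* was at 103 to 242 CPM in EtOH and 170 to 195 CPM in Tet libraries and overlapped widely (0.040, edgeR adjusted p = 0.982), and *ADARB2* was at 0.628 to 1.37 CPM and 0.395 to 1.18 CPM (-0.32, edgeR adjusted p = 0.902).

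Of 12 genes for glutamate transport and metabolism, 8 were tested, and all 8 had a log2 fold change below 0 (-1.09 to -0.12, median -0.41), as had 11374 of all 22443 genes tested. At an unadjusted p under 0.05, 4 were lower and 0 higher, and 5 were lower without overlap, where 1108 and 1859 of all genes tested were. *SLC1A3* (EAAT1), an uptake carrier best known from astrocytes, was at 17.2, 19.2 and 19.9 CPM in EtOH and at 10.6, 6.21 and 9.61 CPM in Tet replicates 1, 2 and 3 (-1.09, SE 0.23, edgeR adjusted p = 0.122). *SLC1A2* (EAAT2), the other main uptake carrier, was at 58.9 to 71.6 CPM in EtOH and 40.4 to 57.3 CPM in Tet libraries (-0.44, edgeR adjusted p = 0.427). *GLUD1*, which feeds glutamate into the citric acid cycle, was at 51.9 to 57.0 CPM and 37.9 to 46.1 CPM (-0.42, edgeR adjusted p = 0.365), with 12.3% of its exon bases shared with *SHLD2* on the other strand. Of the 3 astrocyte markers, *AQP4*, a water channel, had 813 counts in all and made up nearly the whole sum (1.92 TPM on average, log2 fold change -0.27, edgeR adjusted p = 0.830), while *GFAP* had 21.7 and *ALDH1L1* 3 counts. Their part in the difference of *SLC1A3* was not tested. The vesicular transporter *SLC17A6*, a marker of glutamatergic neurons, had 0 counts. Of the other vesicular transporters listed, *SLC17A8* had 39 counts in all and *SLC17A7* had 709. *SLC17A7* was at 7.31, 0.613 and 4.76 CPM in EtOH and at 2.94, 1.49 and 3.77 CPM in Tet replicates 1, 2 and 3. Its groups overlapped (log2 fold change -0.63, edgeR adjusted p = 0.832).

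**Figure D4:**
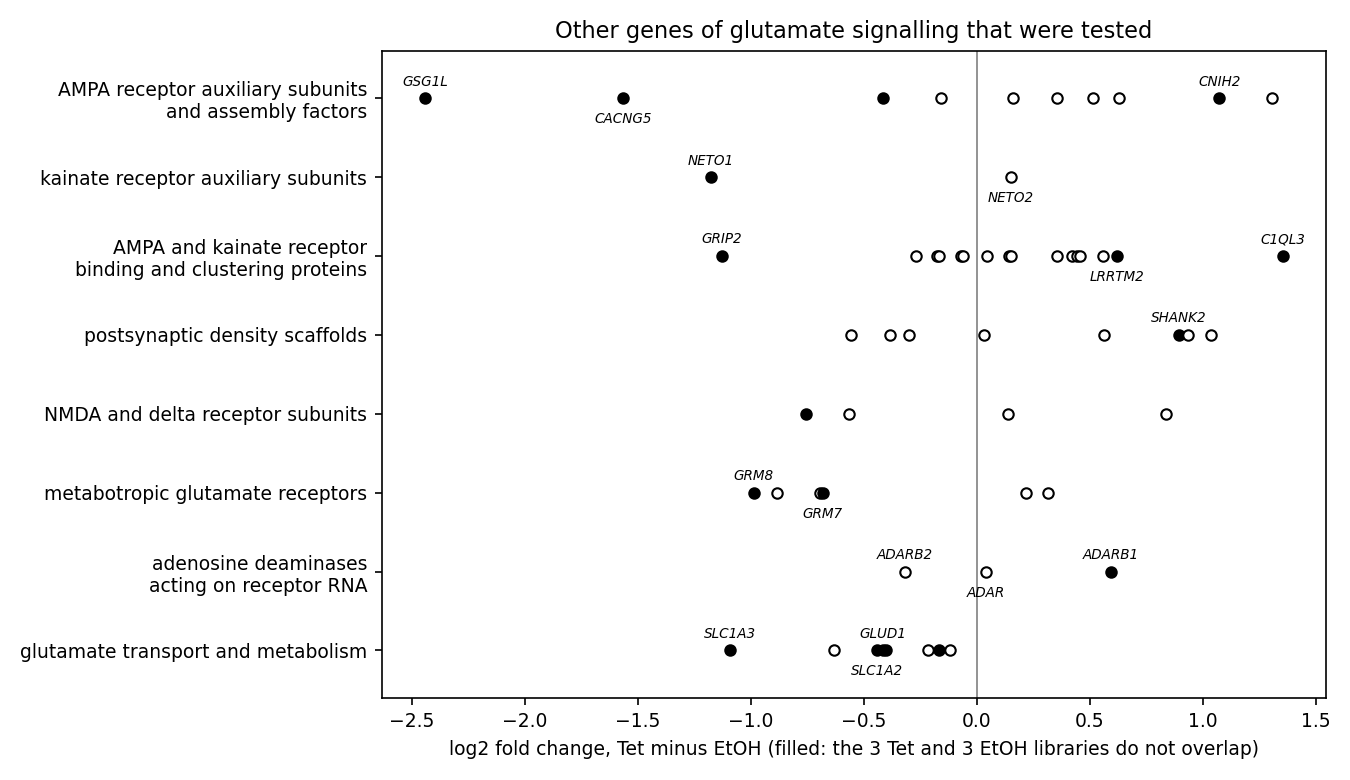
Log2 fold change, Tet minus EtOH, of the 57 tested genes of glutamate signalling outside the AMPA and kainate receptors, in 8 lists. Filled points are genes whose Tet and EtOH libraries do not overlap, and the named genes run from *GSG1L* (-2.44) to *C1QL3* (1.36).

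Whether *GRIA2* passed the threshold depended on the processing. Over 16 alternatives its log2 fold change lay between 1.05 and 1.44, and its adjusted p between 7.4e-04 and 0.382. It passed under 5 of them, among them DESeq2 and, in edgeR, with no filter on low counts (adjusted p = 0.00226) and without EtOH replicate 2. These fits also called more of all genes than the 33 higher and 20 lower of the test as described. Counts were 290 and 209 with DESeq2, 185 and 117 with no filter, and 361 and 331 without EtOH replicate 2. Each of the 6 fits that left out 1 library kept the direction.

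**Figure D5:**
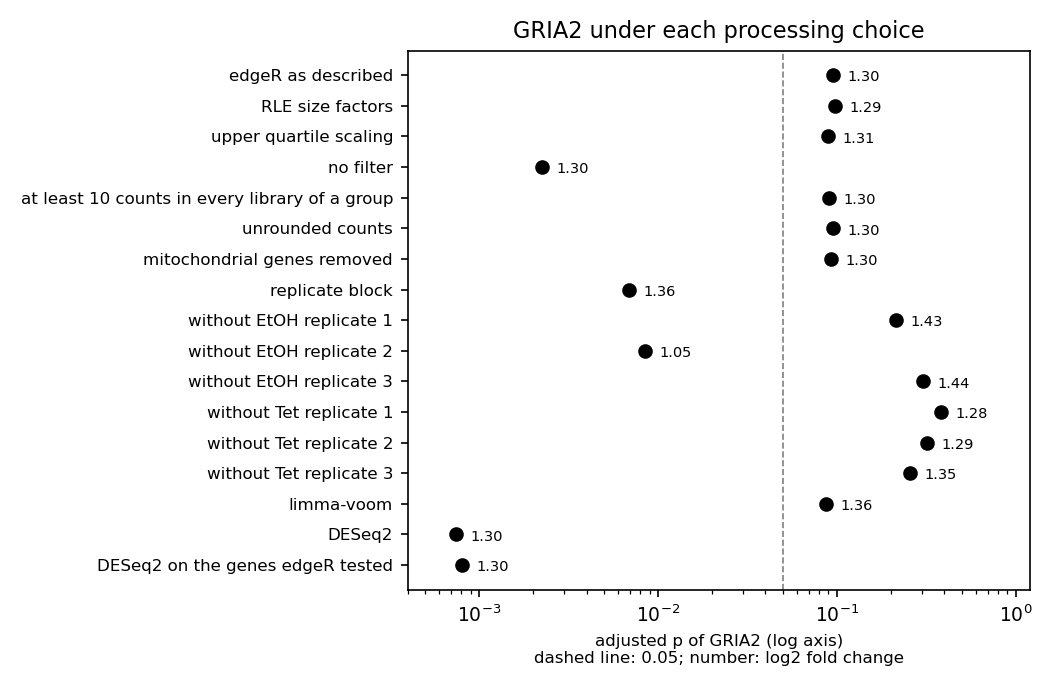
Adjusted p of *GRIA2* on a log axis under the test as described and 16 alternatives, with the log2 fold change written beside each point and the threshold of 0.05 as a dashed line. Of the 16 alternatives, 5 lie below the threshold, and the fold change stays between 1.05 and 1.44.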

How the data were processed

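Total RNA was sequenced in 3 EtOH and 3 Tet libraries. The authors deposited estimated counts per gene: per the file headers, featureCounts 1.6.4 counted read pairs with a single alignment over exons, without strand, splitting a pair evenly between overlapping genes, and the submitters' processing notes name STAR 2.7.1a and featureCounts 1.5.1. Values were not whole for 12.3% to 14.7% of genes and were rounded, where whole counts had been planned for. The 92 spike-in rows held 0 counts. Library totals ran from 27933378 to 40498065. Genes were filtered (filterByExpr), scaled by TMM and tested by quasi-likelihood in edgeR 4.0.16 (R 4.3.3), Tet against EtOH, with Benjamini-Hochberg adjustment over the 22443 genes tested and a threshold of 0.05. The scripts were tested on simulated data. TPM used the exon length in the files. Spans, exon blocks and shared bases came from the deposited files too. GENCODE v44 (GRCh38) gave the Q/R site sequences. Of 60651 genes, 53026 had the same versioned identifier there, and the coordinates matched for 53025 of these. Alternatives were limma-voom (limma 3.58.1), DESeq2 1.42.0, other scalings and filters, unrounded counts, removal of mitochondrial genes, a replicate block and leaving out each library. Named were all 9 receptor genes, *MYCN*, in each list up to 3 genes with the largest difference without overlap, every gene of lists of at most 3, and the 3 genes most like *GRIA2*. Genes at or near 0 counts, *CACNG4*, *SLC17A7*, *SLC17A8* and the markers *TWIST1*, *PRRX1* and *CD44* were named after their values were seen. Some genes that this rule names are not reported here. The members and lists were chosen with earlier results of these data known. Of 89 listed companion genes, GRASP matched no symbol.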

Additional observations from a re-analysis of the deposited data

How the results depend on the processing

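Over 413 refits of the 7 tested receptor genes, *MYCN* and the named companion genes, 377 kept their direction and side of the threshold, 30 passed where the test as described had not, 6 reversed and 0 were lost. Of the receptor genes, 1 higher (*GRIA2*) and 0 lower passed with no filter, the replicate block, DESeq2 and DESeq2 on the genes edgeR tested, and 0 to 1 when a library was left out, the 1 being without EtOH replicate 2. The last DESeq2 fit was chosen after seeing the data. Why they differ was not tested. Leaving out each library in turn, the log2 fold change ran from -0.38 to 0.092 for *GRIK1*, -0.22 to 0.21 for *MYCN*, -0.059 to 0.40 for *NETO2*, -0.23 to 0.29 for *ADAR* and -0.93 to 0.13 for *ADARB2*. Its sign turned without EtOH replicate 2 for *GRIK1*, *MYCN*, *ADAR* and *ADARB2*, without Tet replicate 3 for *MYCN* (0.066) and without Tet replicate 2 for *NETO2*.

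Over all genes, 33 higher and 20 lower became 27 and 13 with RLE size factors, 185 and 117 with no filter, 421 and 254 with the replicate block, 290 and 209 with DESeq2, and 342 and 255 with DESeq2 on the genes edgeR tested. Leaving out 1 library gave 0 to 361 higher and 0 to 331 lower genes, with both upper values without EtOH replicate 2 and 0 or 1 of either without any other. Of the companion genes, 0 higher and 0 lower became 1 and 3 with no filter, 2 and 3 with the replicate block, 2 and 4 with either DESeq2 fit, and 0 to 2 of each when a library was left out. Same-numbered libraries deviated together with correlations of 0.0603, 0.510 and 0.219, so the numbers were not taken as pairs, and under the block *GRIA2* was at 1.36 (edgeR adjusted p = 0.00693). Each library correlated best with its own number only in part, since EtOH replicate 1 was closest to Tet replicate 3 (0.379). Depth limits *GRIA1* and *GRIK4*, which lie near the floor of 3 counts.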
